A study of Mus musculus with 9 samples.

Results

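The genes examined here are the enzymes of cholesterol synthesis together with genes that sense, control or move cholesterol and that are known, for the most part, as targets of the transcription factor SREBP-2. They were taken by symbol from the deposited gene table, from a list drawn up with earlier results of these data known, so counts over the list are a description. There were 29 of them among 55401 rows of the table, namely 19 enzymes, 4 genes of the SREBP-2 switch itself and 6 genes of cholesterol handling. The list does not hold every enzyme or target of the pathway, and those outside it were not analysed here.

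The livers came from ethanol-fed *Ncf1*Lyz-/- mice (n = 4), whose labels read Ncf1-fl/fl-Lyz-Cre+, and from ethanol-fed WT mice (n = 5), which were littermates carrying the floxed *Ncf1* alleles without the Cre. *Ncf1* gives p47phox, a subunit of the NADPH oxidase of phagocytes, and Lyz-Cre deletes in myeloid cells rather than in hepatocytes, the main site of cholesterol synthesis in the liver. All were female mice on a C57BL/6 background aged 10 to 12 weeks, which had 5 days on a liquid control diet, 10 days on a diet with 5% (v/v) ethanol and a single gavage of 5 g/kg ethanol, with livers taken 9 hours after the gavage. Levels are given in FPKM, which counts fragments against transcript length and library size, for the libraries NKO2 to NKO5 from *Ncf1*Lyz-/- livers and WT1 to WT4 and WT6 from WT livers. The labels do not say which column is which mouse, and p-values measure the spread between these livers.

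Cholesterol is built from acetyl-CoA by way of mevalonate, which is turned into isoprenoid units, joined into squalene, closed into the ring of lanosterol and trimmed to cholesterol. When sterols in the endoplasmic reticulum are low, SCAP carries the precursor of SREBP-2 to the Golgi, where it is cleaved, and the freed fragment enters the nucleus and raises transcription of nearly every enzyme of the pathway. When sterols are high, the INSIG proteins hold SCAP and the precursor back, so the mRNAs of these enzymes are a commonly used readout of how much cholesterol a hepatocyte senses.

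The table holds no counts, and depth recovered from the steps between low FPKM values was 18.8 to 20.4 M fragments (M, mega) in *Ncf1*Lyz-/- libraries and 15.4 to 18.9 M in WT libraries. The WT3, WT4 and WT6 libraries were shallower (15.4 to 16.2 M, with 35297 to 35437 genes listed as absent, against 34248 to 34595 in the other 6 libraries), so the set of higher depth held all 4 *Ncf1*Lyz-/- libraries but only WT1 and WT2 of the WT libraries. At these depths 1 fragment on a transcript of 1 kilobase was worth 0.0491 to 0.0649 FPKM, while the members ranged from 1.30 to 365 FPKM and none was listed as absent in any library. The targeted gene *Ncf1* had 0.333 to 0.885 FPKM in *Ncf1*Lyz-/- livers and 0.366 to 1.83 FPKM in WT livers, for a log2 fold change of −0.74 (limma, Benjamini-Hochberg adjusted p = 0.890). In the set of higher depth its log2 fold change was −1.44. Whole liver also holds cells in which Lyz-Cre does not delete, and the values cover floxed and unfloxed exons alike. The part of either in the size of the difference was not tested.

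Markers of hepatocytes summed to between 48798 and 63405 FPKM over 8 genes in *Ncf1*Lyz-/- livers and to between 46847 and 58987 FPKM in WT livers. *Alb* alone had 31823 to 46840 FPKM, so the sum says little of the others. Of the 8 genes, 4 had positive and 4 negative log2 fold changes. *Pck1* (−1.27) and *Tat* (−0.98) had lower values at an unadjusted p under 0.05 in limma, where 3.73% of all genes did. With each of the 9 libraries left out in turn, *Pck1* stayed under that threshold in 9 comparisons and *Tat* in 4. The 10 markers of Kupffer cells and macrophages summed to 151 to 305 FPKM in *Ncf1*Lyz-/- livers and 122 to 381 FPKM in WT livers, with a median log2 fold change of −0.07, and of −0.28 to 0.15 with a library left out. The 8 neutrophil markers summed to 4.08 to 22.2 FPKM in *Ncf1*Lyz-/- livers and 5.98 to 11.9 FPKM in WT livers, and *Ly6g*, *Mpo* and *Elane* were never above 0.1 FPKM. The 4 neutrophil markers that passed the filter on low values were all highest in NKO5. Their median log2 fold change was −0.16 with all libraries, and −0.82 to 0.09 with a library left out, the lowest without NKO5. *Cyp11a1* and *Cyp11b1*, enzymes of steroid hormone synthesis that mark adrenal tissue, were likewise never above 0.1 FPKM. *Star*, also listed as a marker of steroid-making tissue, had 0.324 to 0.730 FPKM in *Ncf1*Lyz-/- livers and 0.331 to 0.593 FPKM in WT livers. In bulk liver, fewer cells of a type cannot be told apart from less RNA per cell.

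SREBP-2 binds short sterol regulatory elements in promoters, usually beside a CCAAT box bound by the factor NF-Y. RefSeq promoter windows of the GRCm38.p6 build, from 250 bases before to 50 bases after a transcription start, were found for 23 of the 29 genes (*Fdps*, *Fdft1*, *Sqle*, *Stard4*, *Npc1* and *Soat2* had no entry). They were searched on both strands for CCAAT, for TCACNCCAC, a spelling of the sterol regulatory element, and for TCACNCNAC, a looser spelling that includes TCACNCCAC. The windows of 4 genes are shown, those of the members at an unadjusted p under 0.05 that had an entry, and that of *Hmgcs1*, which held a sterol regulatory element by the stricter spelling. Letters read 5′ to 3′ along the gene's strand, and capitals mark CCAAT on either strand, where ATTGG is CCAAT on the opposite strand, or TCACNCCAC.
*Mvd*, minus strand, chr8:122443373-122443672: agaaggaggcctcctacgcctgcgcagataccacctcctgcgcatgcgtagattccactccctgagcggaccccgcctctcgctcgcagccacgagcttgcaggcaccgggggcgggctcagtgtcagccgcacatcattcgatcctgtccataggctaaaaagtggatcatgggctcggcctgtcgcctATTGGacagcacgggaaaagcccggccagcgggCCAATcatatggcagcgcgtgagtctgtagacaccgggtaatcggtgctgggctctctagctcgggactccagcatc
*Hmgcs1*, plus strand, chr13:119690101-119690400: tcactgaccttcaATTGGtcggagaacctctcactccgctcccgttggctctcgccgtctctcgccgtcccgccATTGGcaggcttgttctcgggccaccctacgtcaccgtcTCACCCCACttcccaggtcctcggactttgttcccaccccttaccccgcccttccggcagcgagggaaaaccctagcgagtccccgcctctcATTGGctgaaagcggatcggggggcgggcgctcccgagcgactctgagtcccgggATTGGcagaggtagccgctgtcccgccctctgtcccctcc
*Tm7sf2*, minus strand, chr19:6067801-6068100: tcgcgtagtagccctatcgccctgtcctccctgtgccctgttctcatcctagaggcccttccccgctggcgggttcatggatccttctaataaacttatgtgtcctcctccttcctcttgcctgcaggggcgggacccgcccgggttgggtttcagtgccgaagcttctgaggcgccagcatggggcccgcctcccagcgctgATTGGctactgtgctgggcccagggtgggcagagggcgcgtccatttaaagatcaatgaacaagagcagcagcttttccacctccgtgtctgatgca
*Sc5d*, minus strand, chr9:42264251-42264550: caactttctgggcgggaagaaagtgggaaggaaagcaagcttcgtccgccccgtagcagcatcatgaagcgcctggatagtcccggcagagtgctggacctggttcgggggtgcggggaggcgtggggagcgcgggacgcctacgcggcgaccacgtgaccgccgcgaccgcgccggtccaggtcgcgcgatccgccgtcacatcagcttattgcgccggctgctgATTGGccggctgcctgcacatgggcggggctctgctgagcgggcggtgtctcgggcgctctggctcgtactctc
CCAAT was found in the windows of 21 of the 23 genes (91.3%), against 42.6% of the 8687 tested genes with an entry, and it was in those of 15 of the 16 matched enzymes. *Acat2* and *Scap* had none. Of the genes shown, *Mvd* had 2 CCAAT boxes within 60 bases of its start and *Hmgcs1* had 4, while *Tm7sf2* and *Sc5d* had 1 each, at 47 and 24 bases before the start. TCACNCCAC was found only in *Hmgcs1*, 137 bases before its start, against 1.54% of the 8687 genes, and TCACNCNAC in *Hmgcs1* and *Nsdhl*, against 3.46% of them. A match in letters is a description of the window and says nothing of binding.

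Across the 29 genes, values in *Ncf1*Lyz-/- livers were above those in WT livers more often than below. All 29 passed the filter on low values, and 22 had a positive and 7 a negative log2 fold change, with a median of 0.32. Without NKO4, an *Ncf1*Lyz-/- library singled out after its values were seen, 19 were positive and 10 negative, with a median of 0.14. With any other library left out 22 to 25 were positive, with medians of 0.29 to 0.40. Over all 12350 genes tested the median was 0.003 and 50.5% were positive. None of the 29 passed an adjusted p under 0.05 (limma with Benjamini-Hochberg adjustment, smallest adjusted p = 0.498), and of all genes tested 0.00810% did. That single gene was *mt-Tl2*, a mitochondrial tRNA gene named here after its values were seen.

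At an unadjusted p under 0.05, 5 members had higher values in *Ncf1*Lyz-/- livers, namely *Mvd*, *Fdps*, *Fdft1*, *Tm7sf2* and *Sc5d*, all of them enzymes, where 2.17% of all genes did. Only *Mvd* stayed under that threshold with each of the 9 libraries left out in turn, while *Fdps* and *Fdft1* did so in 6 of the 9, *Sc5d* in 4 and *Tm7sf2* in 3. No member had lower values at that threshold, where 3.73% of all genes did. With a log2 fold change above 1 as well, only *Mvd* remained, against 0.405% of all genes. *Mvd* was also the only member whose 4 *Ncf1*Lyz-/- values all lay above its 5 WT values, against 0.713% of all genes, and no member had all values below, against 1.50%.

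**Figure D1:**
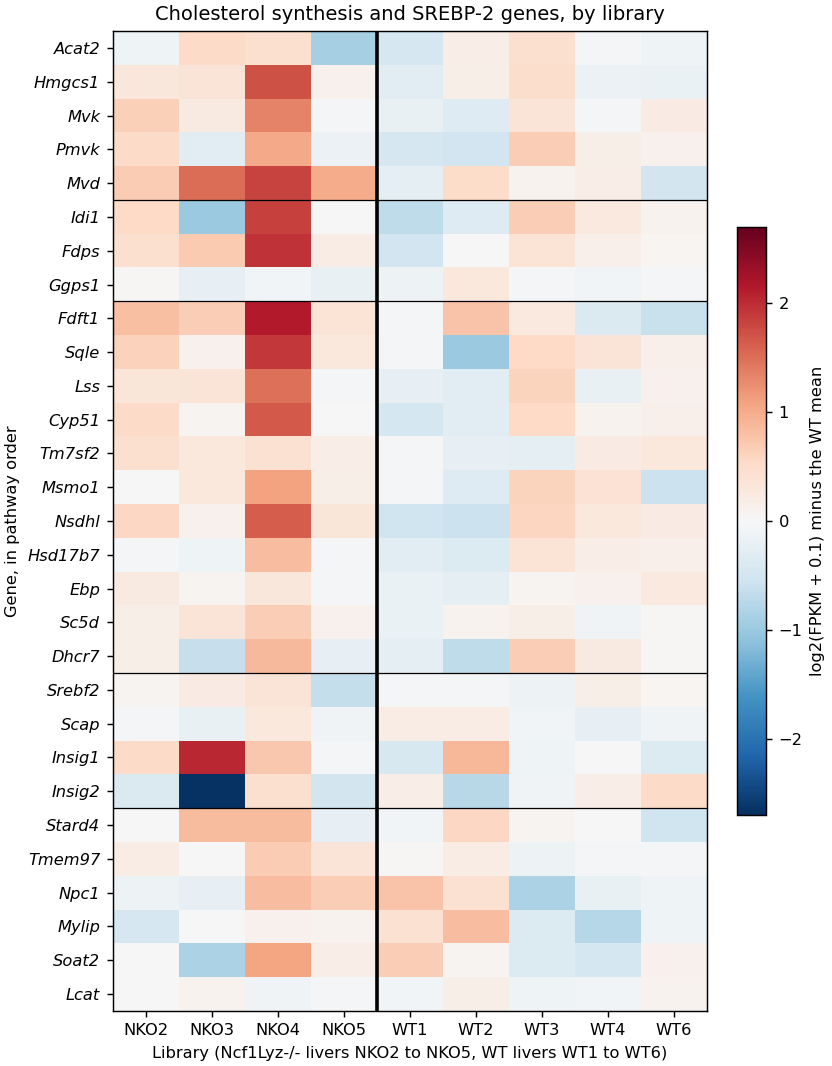
Levels of the 29 genes in each library as log2(FPKM + 0.1) minus the mean of the 5 WT libraries (colour scale, red above and blue below the WT mean), with genes in pathway order down the page, black lines between the 5 groups of genes, and *Ncf1*Lyz-/- libraries left of WT libraries. The column of NKO4 is the reddest among the 19 enzymes, with a median of 1.33 on this scale, while NKO3 holds the highest value of *Insig1* and the lowest of *Insig2*.

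The first steps make mevalonate and turn it into the activated 5-carbon unit. *Mvd* (ENSMUSG00000006517, chr8:122433601-122443422, minus strand, GRCm38), which encodes mevalonate diphosphate decarboxylase, the last enzyme of this stretch, had 4.68, 8.33, 10.3 and 5.82 FPKM in the *Ncf1*Lyz-/- livers, against 2.35, 4.05, 3.04, 3.23 and 2.01 FPKM in the WT livers. Every *Ncf1*Lyz-/- liver lay above every WT liver, and the nearest pair, NKO2 and WT2, were close. *Ncf1*Lyz-/- livers averaged 7.29 ± 2.53 FPKM (SD, n = 4), against 2.94 ± 0.800 FPKM for WT livers (SD, n = 5), a ratio of 2.48. In limma the log2 fold change was 1.26 ± 0.26 (SE), with a Benjamini-Hochberg adjusted p = 0.498. By an exact permutation test, two-sided, p = 0.00794, the smallest that 4 livers against 5 allow. Without NKO4 the log2 fold change of *Mvd* was 1.07.

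The other 4 genes of this stretch overlapped between the groups. *Hmgcs1*, the cytosolic HMG-CoA synthase that commits carbon to the pathway, had 25.9, 26.5, 69.3 and 22.7 FPKM in *Ncf1*Lyz-/- livers and 17.1, 23.1, 29, 18.7 and 18.3 FPKM in WT livers. A single liver, NKO4, stood well above the rest, and the remaining 3 *Ncf1*Lyz-/- values lay among the upper WT values. Its log2 fold change was 0.63, and 0.26 without NKO4. *Mvk*, mevalonate kinase, had 4.25 to 11.2 FPKM in *Ncf1*Lyz-/- livers and 3.44 to 5.62 FPKM in WT livers (log2 fold change 0.54, and 0.28 without NKO4). *Pmvk*, the next kinase, had 15.0 to 38.1 FPKM in *Ncf1*Lyz-/- livers and 13.0 to 29.6 FPKM in WT livers (log2 fold change 0.27, and 0.01 without NKO4). Both kinases were highest in NKO4 and lowest in WT2. *Acat2*, the cytosolic thiolase that feeds the pathway with acetoacetyl-CoA, had 11.6 to 30.8 FPKM in *Ncf1*Lyz-/- livers and 15.8 to 28.9 FPKM in WT livers and a log2 fold change of −0.01.

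Isoprenoid units are isomerised by IDI1 and joined by FDPS to farnesyl diphosphate, the branch point between sterols and other products. *Fdps* (ENSMUSG00000059743, chr3:89093588-89101959, minus strand) had 18.0, 21.9, 52.1 and 15.4 FPKM in *Ncf1*Lyz-/- livers, against 9.23, 13.2, 17.1, 14.6 and 13.8 FPKM in WT livers. Only NKO5 lay within the range of the WT livers, below WT3, and NKO4 had 3.83 times the WT mean. *Fdps* had a log2 fold change of 0.83 ± 0.33 (SE; limma, Benjamini-Hochberg adjusted p = 0.842), or 0.45 without NKO4, and the two-sided exact permutation p was 0.0159. Its exons share 1124 bases on the same strand with those of *Gm43738* in the annotation used here, and *Gm43738* was at most 0.00819 FPKM in any library.

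*Idi1* spread more widely than any other member of these steps, with 6.57 to 48.5 FPKM in *Ncf1*Lyz-/- livers and 8.26 to 21.1 FPKM in WT livers. Both its lowest value, in NKO3, and its highest, in NKO4, were in *Ncf1*Lyz-/- livers. Its log2 fold change was 0.35 with all libraries and −0.15 without NKO4. *Ggps1*, which makes the geranylgeranyl diphosphate used to anchor proteins in membranes and is not a step toward cholesterol, had the lowest levels of the 29 genes, 1.30 to 1.57 FPKM in *Ncf1*Lyz-/- livers and 1.39 to 1.89 FPKM in WT livers (log2 fold change −0.12).

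From squalene to cholesterol, all 11 enzymes had positive log2 fold changes, between 0.04 and 1.0, with a median of 0.37. *Fdft1* (ENSMUSG00000021273, chr14:63145150-63179578, minus strand), squalene synthase, the first enzyme that works for sterols alone, had 23.1, 21.0, 59.0 and 17.1 FPKM in *Ncf1*Lyz-/- livers, against 12.8, 22.8, 15.8, 10.0 and 8.71 FPKM in WT livers. NKO4 was again far above the others, and WT2 lay among the *Ncf1*Lyz-/- livers. *Fdft1* had a log2 fold change of 1.0 ± 0.38 (SE; limma, Benjamini-Hochberg adjusted p = 0.840), or 0.61 without NKO4, and the two-sided exact permutation p was 0.0476. Exons of *Fdft1* overlap those of *Ctsb* on the opposite strand by 774 bases. The strand setting of the counting is not given in the sources used here, and *Ctsb* averaged 109 ± 22.7 FPKM across *Ncf1*Lyz-/- livers (SD, n = 4), against 111 ± 7.75 FPKM across WT livers (SD, n = 5).

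*Sc5d* (ENSMUSG00000032018, chr9:42251595-42264256, minus strand), a desaturase of the late ring steps, had 73.0, 83.4, 103 and 70.8 FPKM in *Ncf1*Lyz-/- livers, against 57.7, 69.6, 72.7, 60.7 and 67.0 FPKM in WT livers. The groups overlapped only through NKO5, which lay below WT3, and NKO4 was 1.57 times the WT mean. For *Sc5d* the log2 fold change came to 0.32 ± 0.13 (SE; limma, Benjamini-Hochberg adjusted p = 0.842), or 0.21 without NKO4, and the two-sided exact permutation p was 0.0238.

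*Tm7sf2* (ENSMUSG00000024799, chr19:6062821-6068373, minus strand), a sterol reductase, had 15.3, 13.9, 15.2 and 12.9 FPKM in *Ncf1*Lyz-/- livers, against 11.1, 9.66, 9.65, 13.2 and 13.9 FPKM in WT livers. It was 1 of the 3 enzymes whose highest value was not in NKO4, and WT4 and WT6 overlapped the *Ncf1*Lyz-/- livers. For *Tm7sf2* the log2 fold change came to 0.33 ± 0.14 (SE; limma, Benjamini-Hochberg adjusted p = 0.842), or 0.30 without NKO4, and the two-sided exact permutation p was 0.0635. Its exons share 532 bases on the same strand with *Vps51*, which averaged 2.27 ± 0.518 FPKM across *Ncf1*Lyz-/- livers (SD, n = 4), against 2.19 ± 0.382 FPKM across WT livers (SD, n = 5).

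The remaining 8 enzymes of this stretch did not pass an unadjusted p under 0.05. *Sqle*, the squalene epoxidase that is a control point of the pathway, had 8.78 to 30.7 FPKM in *Ncf1*Lyz-/- livers and 3.96 to 11.9 FPKM in WT livers, with the top value in NKO4 and the bottom value in WT2 (log2 fold change 0.74, and 0.34 without NKO4). *Lss*, lanosterol synthase, which closes the ring, had 3.0 to 8.82 FPKM in *Ncf1*Lyz-/- livers and 2.51 to 4.69 FPKM in WT livers (log2 fold change 0.53, and 0.21 without NKO4). *Cyp51*, the lanosterol demethylase, had 20.1 to 63.7 FPKM in *Ncf1*Lyz-/- livers and 14.5 to 29.4 FPKM in WT livers (0.56, and 0.19 without NKO4). In both genes the *Ncf1*Lyz-/- livers other than NKO4 lay within the WT range.

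*Nsdhl*, a sterol dehydrogenase, had 13.5 to 38.5 FPKM in *Ncf1*Lyz-/- livers and 8.31 to 18.7 FPKM in WT livers (log2 fold change 0.66, and 0.34 without NKO4). *Msmo1*, a methylsterol oxidase, had 10.2 to 21.9 FPKM in *Ncf1*Lyz-/- livers and 6.88 to 15.7 FPKM in WT livers (0.37, and 0.14 without NKO4). *Hsd17b7*, a ketosterol reductase, had 7.11 to 13.9 FPKM in *Ncf1*Lyz-/- livers and 5.99 to 10.0 FPKM in WT livers (0.15, and −0.08 without NKO4). All 3 work together in stripping methyl groups from the ring, and all were highest in NKO4. *Ebp*, a sterol isomerase and with *Sc5d* the most abundant of the enzymes, had 65.8 to 83.6 FPKM in *Ncf1*Lyz-/- livers and 56.1 to 80.2 FPKM in WT livers (0.15, and 0.10 without NKO4). *Dhcr7*, a terminal sterol reductase, had 9.74 to 27.8 FPKM in *Ncf1*Lyz-/- livers and 9.31 to 23.8 FPKM in WT livers (0.04, and −0.23 without NKO4).

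**Figure D2:**
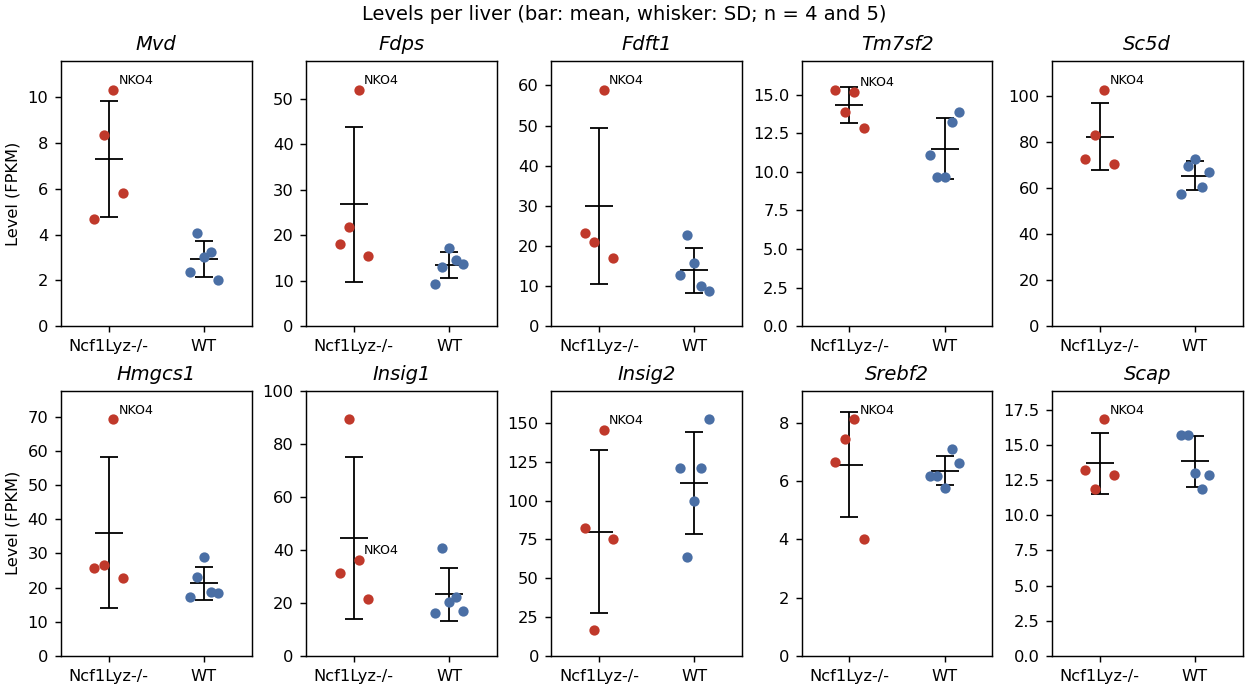
Levels (FPKM, linear axes from 0) of the 5 enzymes at an unadjusted p under 0.05, *Hmgcs1* and the 4 genes of the SREBP-2 switch, with *Ncf1*Lyz-/- livers in red on the left, WT livers in blue on the right, and the mean and SD as bars (n = 4 and n = 5). NKO4 is marked in each panel, and only *Mvd* shows no overlap, with 4.68 FPKM as its lowest *Ncf1*Lyz-/- value and 4.05 FPKM as its highest WT value.

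Among the genes of the switch, *Srebf2*, which encodes SREBP-2, had 6.65, 7.45, 8.13 and 4.01 FPKM in *Ncf1*Lyz-/- livers, against 6.18, 6.17, 5.75, 7.09 and 6.63 FPKM in WT livers. The *Ncf1*Lyz-/- livers held both its highest value, in NKO4, and its lowest, in NKO5, around WT livers that lay close together. *Ncf1*Lyz-/- livers averaged 6.56 ± 1.81 FPKM (SD, n = 4), against 6.36 ± 0.511 FPKM for WT livers (SD, n = 5), and the 95% interval of the log2 fold change was −0.43 to 0.43. SREBP-2 is controlled by cleavage of the protein, which mRNA levels do not show.

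*Scap*, which encodes the escort protein of the SREBPs, had 13.2, 11.9, 16.8 and 12.9 FPKM in *Ncf1*Lyz-/- livers and 15.7, 15.7, 13.0, 11.8 and 12.8 FPKM in WT livers. Its values overlapped throughout, with a log2 fold change of −0.01 (95% interval −0.32 to 0.29).

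Both INSIG genes, whose products hold SCAP in the endoplasmic reticulum, were the most variable of the switch. *Insig1*, itself an SREBP target, had 31.2, 89.5, 36.3 and 21.6 FPKM in *Ncf1*Lyz-/- livers, against 16.1, 40.8, 20.4, 22.2 and 17.0 FPKM in WT livers. NKO3 stood far above all others and WT2 above the other WT livers. *Insig1* had a log2 fold change of 0.81 ± 0.40 (SE; limma, Benjamini-Hochberg adjusted p = 0.870), or 0.40 without NKO3, and the two-sided exact permutation p was 0.127.

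*Insig2*, of which the liver makes a transcript that insulin lowers, had 82.2, 16.8, 145 and 75.6 FPKM in *Ncf1*Lyz-/- livers, against 121, 63.4, 99.7, 121 and 152 FPKM in WT livers. NKO3 was far below the rest and WT2 was the lowest WT liver, so the livers at the extremes of *Insig1* lay at the opposite end for *Insig2*. *Insig2* had a log2 fold change of −0.78 ± 0.54 (SE; limma, Benjamini-Hochberg adjusted p = 0.900), or −0.15 without NKO3, and the two-sided exact permutation p was 0.254. Without NKO4 it was −1.18, the only member then at an unadjusted p under 0.05 with lower values, where 3.43% of all genes had them.

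Of the 6 genes of cholesterol handling, log2 fold changes were positive for 4 and negative for 2 (median 0.19). None of the 6 passed an unadjusted p under 0.05, where 2.17% of all genes had higher and 3.73% lower values. The median log2 fold change was 0.06 without NKO4 and 0.04 without WT3, and among the 6 libraries of higher depth it was −0.17, with 2 positive and 4 negative. *Tmem97*, a membrane protein that binds NPC1, had 54.6 to 86.5 FPKM in *Ncf1*Lyz-/- livers and 49.2 to 61.7 FPKM in WT livers (log2 fold change 0.31, and 0.18 without NKO4, two-sided exact permutation p = 0.0556). *Stard4*, a cytosolic sterol carrier, had 5.98 to 12.8 FPKM in *Ncf1*Lyz-/- livers and 4.76 to 10.3 FPKM in WT livers (log2 fold change 0.38, and 0.22 without NKO4). Both are SREBP-2 targets. *Tmem97* was highest in NKO4, and *Stard4* was level in NKO4 and NKO3.

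*Npc1*, which exports cholesterol from lysosomes, had 10.6 to 22.2 FPKM in *Ncf1*Lyz-/- livers and 6.76 to 21.0 FPKM in WT livers, with a log2 fold change of 0.29, and −0.29 among the 6 libraries of higher depth. *Soat2*, which esterifies cholesterol in hepatocytes, had 16.5 to 62.0 FPKM in *Ncf1*Lyz-/- livers and 21.3 to 47.1 FPKM in WT livers, with a log2 fold change of 0.09, and −0.23 without NKO4. *Mylip*, a ubiquitin ligase of lipoprotein receptors known as a target of LXR rather than of SREBP-2, had 2.07 to 3.14 FPKM in *Ncf1*Lyz-/- livers and 1.65 to 5.20 FPKM in WT livers (log2 fold change −0.06). *Lcat*, which encodes the secreted enzyme that esterifies cholesterol in plasma, was the most abundant of the 29 genes, averaging 324 ± 18.9 FPKM across *Ncf1*Lyz-/- livers (SD, n = 4), against 327 ± 28.2 FPKM across WT livers (SD, n = 5), with a 95% interval of the log2 fold change of −0.23 to 0.20.

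**Figure D3:**
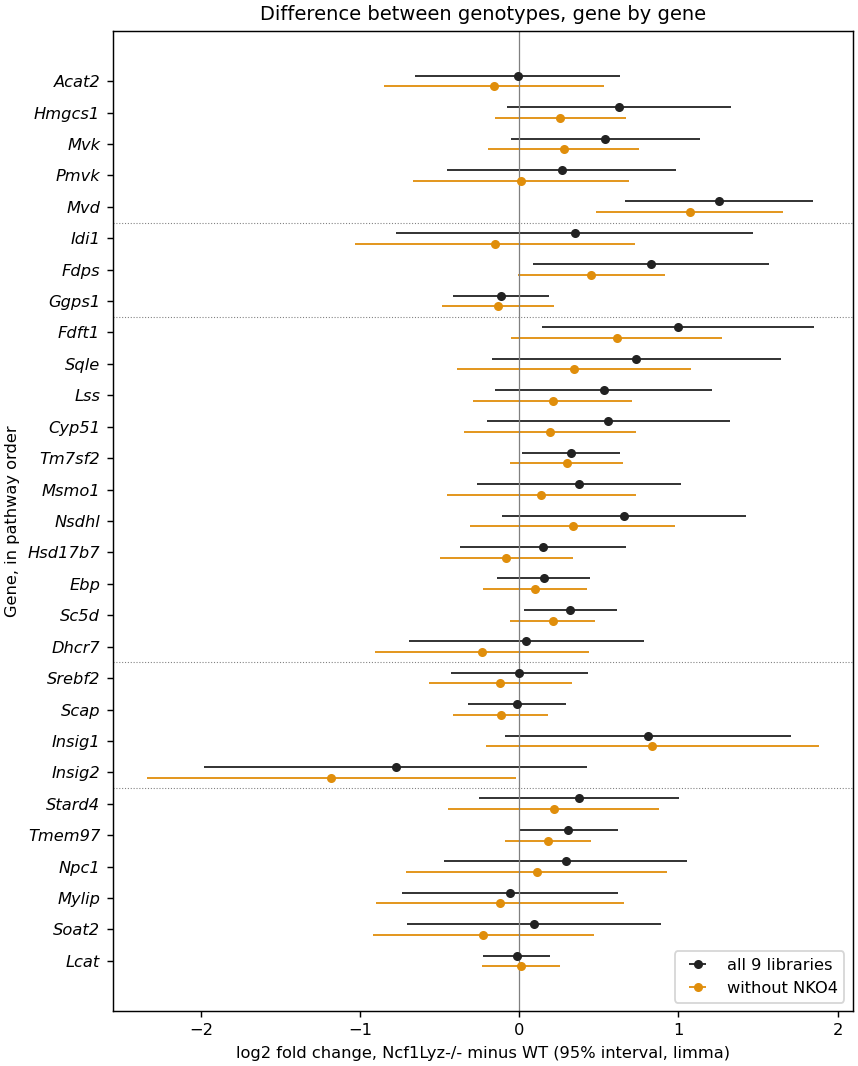
Log2 fold change of each of the 29 genes, *Ncf1*Lyz-/- minus WT, with 95% intervals from limma, in pathway order down the page, for all 9 libraries (black) and without NKO4 (orange). Most enzymes move toward 0 without NKO4, as *Fdps* does, at 0.83 with all libraries and 0.45 without NKO4, while *Mvd* stays near its value at 1.26 and 1.07. NKO4 has the highest value of 16 of the 19 enzymes, so leaving it out lowers their fold changes by construction.

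The enzymes were highest together in a single *Ncf1*Lyz-/- liver. NKO4 had the highest value of the 9 libraries for 16 of the 19 enzymes and for 22 of the 29 members, against 11.5% of all genes tested. Its values were above 2 times the WT mean for 11 enzymes, up to 4.21 times for *Fdft1*. Relative to the WT mean, the median of the 19 enzymes on the log2 scale was 0.43, 0.25, 1.33 and 0.02 in NKO2 to NKO5, against −0.25, −0.28, 0.42, 0.14 and 0.10 in WT1 to WT4 and WT6. NKO4 stood clear of the WT livers, NKO2 was level with WT3, NKO3 lay between WT3 and WT4, and NKO5 lay below 3 WT livers. At the other end, WT2 held the lowest value of 8 enzymes and WT1 of 4, against 7.06% and 5.26% of all genes tested.

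The same liver led each stretch of the pathway. For the 5 mevalonate enzymes the library medians (log2 over the WT mean) were 0.52, 0.34, 1.33 and −0.05 in NKO2 to NKO5, against −0.28, 0.15, 0.42, −0.02 and −0.12 in the WT livers. For the 11 enzymes from squalene to cholesterol they were 0.32, 0.12, 1.08 and 0.12 in NKO2 to NKO5, against −0.18, −0.31, 0.54, 0.18 and 0.13 in the WT livers. WT3 was the highest WT liver in both stretches, and in the second it lay above 3 of the 4 *Ncf1*Lyz-/- livers. Of these 11 enzymes, WT1 was below the WT mean for all 11, WT2 for 9 and WT3 for 1, while NKO4 was above it for all 11.

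Without NKO4, 14 of the 19 enzymes had a positive log2 fold change and 5 a negative one, and the median was 0.21. Only *Mvd* then had higher values at an unadjusted p under 0.05, where 1.66% of 12359 genes did. In NKO4 the summed hepatocyte markers were 59337 FPKM, within the range of the other libraries, and the summed Kupffer cell and macrophage markers were 151 FPKM, the lowest of the *Ncf1*Lyz-/- livers. NKO4 also had the highest values of the pancreatic enzyme genes *Prss2* and *Cpa1*, at 1.49 and 0.779 FPKM, against at most 0.368 and 0.126 FPKM in WT livers and the value of an absent gene in NKO2, NKO3 and NKO5. *Cela1*, listed with them, was highest in WT6 and had 3.05 FPKM in NKO4, within the WT range of 1.96 to 3.32 FPKM. The part of these markers in the levels of the enzymes was not tested.

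**Figure D4:**
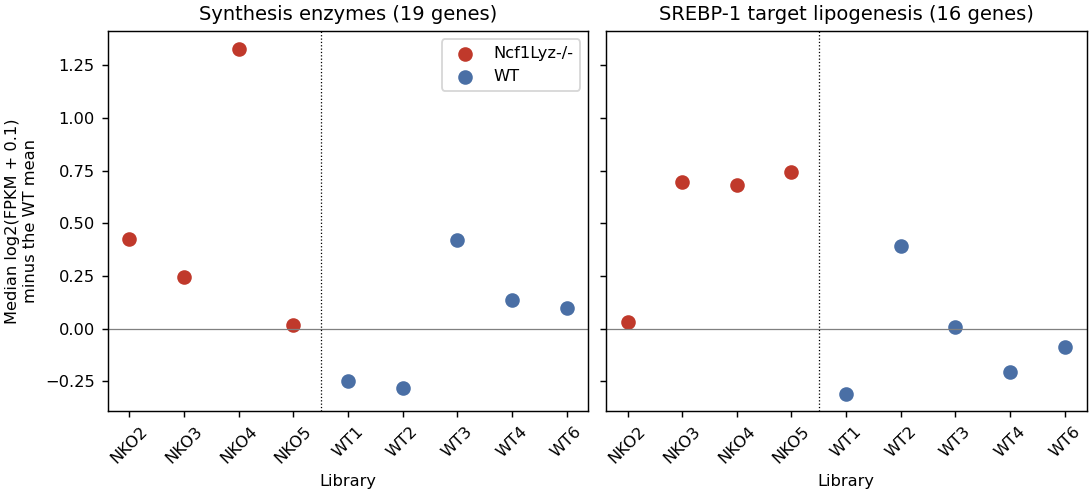
Median over genes of log2(FPKM + 0.1) minus the WT mean in each library, for the 19 enzymes of cholesterol synthesis (left) and 16 lipogenic genes known as SREBP-1 targets (right), with *Ncf1*Lyz-/- libraries in red left of the dotted line and WT libraries in blue. NKO4 stands alone at 1.33 for the enzymes, while NKO3, NKO4 and NKO5 lie together at 0.70, 0.68 and 0.74 for the lipogenic genes.

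The 3 WT libraries of lower depth had the highest enzyme medians among WT livers. Among the 6 libraries of higher depth, 18 of the 19 enzymes had positive log2 fold changes, with a median of 0.69, where the median of all genes tested was −0.11. In that comparison *Mvd* (1.15), *Nsdhl* (1.21), *Tm7sf2* (0.46) and *Ebp* (0.37) had higher values at an unadjusted p under 0.05, where 1.29% of 12473 genes did, and *Mylip* had lower values (−0.69), where 4.11% of all genes did. None of the members passed an adjusted p under 0.05 there. The 10 markers of Kupffer cells and macrophages all had negative log2 fold changes among these 6 libraries, with a median of −0.81. Only 2 WT livers remained in it, and the part of depth and of macrophage content in the difference was not tested.

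The lipogenic genes known as SREBP-1 targets, which share the SCAP and INSIG machinery, were followed as the nearest neighbours of the pathway. Of 16, all tested, 15 had positive log2 fold changes, with a median of 0.51, and 3 had higher values at an unadjusted p under 0.05, against 2.17% of all genes, namely *Mid1ip1*, a regulator of acetyl-CoA carboxylase (0.98), *Aacs*, acetoacetyl-CoA synthetase (1.59), and *Fasn*, fatty acid synthase (1.18). Among the 6 libraries of higher depth 13 were positive and 3 negative, with a median of 0.20. In that comparison 1 had higher values at that threshold, where 1.29% of all genes did. With a library left out 2 to 7 of the 16 genes did so (2 without NKO3, NKO5, WT1, WT3 or WT4, 6 without NKO2 and 7 without WT2). Without NKO4 it was 3 of them, where 1.66% of all genes did, and shares for the other libraries left out are not given here. Their highest values were spread over libraries, in NKO3 for 6 genes, WT2 for 6, NKO4 for 2 and NKO5 for 2. Of all genes tested, 20.5%, 25.8%, 11.5% and 5.95% were highest in these libraries. Relative to the WT mean the median of the 16 genes was 0.03, 0.70, 0.68 and 0.74 in NKO2 to NKO5, against −0.31, 0.39, 0.01, −0.21 and −0.09 in the WT livers. NKO2 lay below NKO5 here and above it for the enzymes. *Srebf1*, which encodes SREBP-1 and was singled out after its values were seen, had 50.4 FPKM in NKO3, the liver highest for *Insig1* and lowest for *Insig2*, and 8.87 to 13.6 FPKM in the other 8 livers.

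Genes that process the SREBPs or degrade sterol enzymes had a median log2 fold change of 0.08 over 12 genes, of which 7 were positive. None had higher values at an unadjusted p under 0.05, against 2.17% of all genes. Lower values at that threshold were found for 2, against 3.73% of all genes, namely *Sec24d*, a coat protein of the vesicles that carry SCAP (−0.35), and *Trib1* (−0.73). *Sec24d* stayed under that threshold in 5 of 9 comparisons with a library left out and *Trib1* in 2. Among the 6 libraries of higher depth no gene of the list had lower values at that threshold, where 4.11% of all genes did, and the median was −0.08, with 3 positive and 9 negative. The 8 genes of LXR and cholesterol export had a median of −0.16, with 6 negative. *Abcg5*, which encodes part of the exporter of sterols into bile, had lower values (−0.41) at an unadjusted p under 0.05, where 3.73% of all genes did. It did not stay under that threshold without NKO4 (−0.28). Among the 6 libraries of higher depth the median of these 8 genes was −0.38. Of 12 genes of intracellular cholesterol transport, 10 were tested, with 5 positive and 5 negative. *Osbpl2*, a relative of the oxysterol-binding protein, had higher values (0.40) at an unadjusted p under 0.05, where 2.17% of all genes did. It did not without NKO4, NKO5, WT3, WT4 or WT6. Among the 6 libraries of higher depth 11 of the 12 were tested, 1 positive and 10 negative, with a median of −0.23. There 2 genes had lower values at that threshold, where 4.11% of all genes did.

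The branches that draw on the same isoprenoids for ubiquinone, dolichol and protein prenylation had log2 fold changes that were positive for 2 genes and negative for 10 (median −0.11). None of the 12 genes passed an unadjusted p under 0.05, where 2.17% of all genes had higher and 3.73% lower values. Bile acid synthesis, the main route by which cholesterol is consumed in the liver, had 6 positive and 2 negative of 8, with a median of 0.11. *Cyp7a1*, which opens that route, was the 1 gene of the list at an unadjusted p under 0.05, with higher values, where 2.17% of all genes had them. It did not pass an adjusted p under 0.05 (limma, Benjamini-Hochberg adjusted p = 0.416). *Cyp7a1* had 11.5, 17.1, 19.5 and 14.5 FPKM in NKO2 to NKO5, against 1.67, 7.81, 4.23, 3.96 and 2.06 FPKM in the WT livers. All *Ncf1*Lyz-/- livers lay above all WT livers, against 0.713% of all genes. Like 16 of the synthesis enzymes, *Cyp7a1* was highest in NKO4, but its log2 fold change was 2.14 with all libraries and 2.03 without NKO4. It stayed at an unadjusted p under 0.05 with each of the 9 libraries left out in turn. Among the 6 libraries of higher depth its log2 fold change was 2.05.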

How the data were processed

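Poly(A) RNA from ethanol-fed *Ncf1*Lyz-/- livers (n = 4) and WT livers (n = 5) was prepared with a strand-marking kit and read from both ends. The authors mapped reads with HISAT2, assembled transcripts with StringTie, cite edgeR for quantification, and deposited FPKM values with an absent gene listed at 1e-04. Versions, genome build, annotation and the strand setting are not given in the sources used here. The deposited table also holds the authors' own ratio of the groups (fold change), its log2 value, and a p-value and q-value of their comparison. These 4 columns were not used.

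Columns were placed in groups by name. The fit used limma 3.58.1 (R 4.3.3), taking log2(FPKM + 0.1), no covariate and a mean-variance trend, for the 12350 genes whose mean over the 9 libraries reached 0.5 FPKM, with Benjamini-Hochberg adjustment over all of them. Fold changes on this scale understate the change of low genes. The method was tested on simulated data. Each of the 29 genes was also compared by an exact permutation test of mean log2(FPKM + 0.1), two-sided. Depth was recovered from the low FPKM values among 15169 single-exon genes of GENCODE M21 (GRCm38), 1415 to 1585 values per library. Of these values 52.6% to 54.8% lay on steps of 0.5 fragment to a tolerance of 0.1 of a step, where an even spread gives 20%. The step was fitted to the same values, so these shares describe the fit and do not test it. GENCODE M21 also gave exon overlaps, found for 10 of the 29 genes.

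Values by library are given for members at an unadjusted p under 0.05, for those whose groups do not overlap, for the 4 genes of the switch and, chosen after its values were seen, for *Hmgcs1*. Of each other list at most the 4 genes with the smallest p were named, other than *Srebf1* and the marker genes. Members and lists were chosen with earlier results of these data known. Alternatives were pseudocounts of 0.5 and 1, no filter, a mean of at least 1 FPKM, median-ratio scaling, no trend, array weights, the depth set as a covariate, the 6 libraries of higher depth, and each library left out. Python 3.11.15 and matplotlib 3.10.9 were used for tables and figures.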

Additional observations from a re-analysis of the deposited data

Results flagged for a closer look

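Values were compared here in FPKM, not on the log2 scale of the other tests, on which the flags can differ. In 6 of 58 groups of values examined (29 genes in each genotype), 1 library lay apart from the others of its genotype by Dixon's 95% critical value. Normally distributed values exceed it by chance in about 1 of 20 groups, and FPKM values need not be so distributed. NKO4 accounted for 4 of the 6 groups, all of enzymes. *Hmgcs1* had 69.3 FPKM in NKO4 and 22.7 to 26.5 FPKM in the other *Ncf1*Lyz-/- livers, *Fdft1* had 59.0 FPKM there and 17.1 to 23.1 FPKM in the others, *Lss* had 8.82 FPKM there and at most 3.91 FPKM in the others, and *Hsd17b7* had 13.9 FPKM there and 7.11 to 7.41 FPKM in the others. These 4 values come from 1 liver and are not independent of each other. WT2 accounted for the other 2, with 1.89 FPKM of *Ggps1*, against 1.39 to 1.50 FPKM in the other WT livers, and 40.8 FPKM of *Insig1*, against 16.1 to 22.2 FPKM.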

How the results depend on the processing

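Over 18 alternatives, of which 9 left out a library, no member passed an adjusted p under 0.05 in limma (range 0.181 to 1.0), and for *Mvd* it ran from 0.181 to 0.915. The direction was kept by 19 of the 29 members, among them 15 of the 19 enzymes, under all 18. No paired analysis was possible because the column names carry other numbers than the labels' replicates (WT6 has no counterpart).

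Of all genes tested, the 1 at an adjusted p under 0.05 became 0 with no filter on low values, 0 with no trend, 6 with array weights and 2 with depth as a covariate, and 0 to 1 with a library left out. Members with higher values at an unadjusted p under 0.05 numbered 3 with array weights and 8 with depth as a covariate, against 5. With a library left out they numbered 1 to 9, with 1 without NKO4, 2 without WT1, 3 without WT4 or WT6 and 9 without NKO5. Members with lower values numbered 1 with depth as a covariate and 1 among the 6 libraries of higher depth (*Mylip*), and 0 to 1 with a library left out. The share of all genes with higher values was 2.17% with all libraries and 1.66% without NKO4. For lower values it was 3.73% with all libraries, 3.43% without NKO4 and 4.11% among the 6 libraries of higher depth. Shares in the other settings are not given here, so the counts there only describe the members. The median log2 fold change of the enzymes ran from 0.21 to 0.59 with a library left out.

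Reversals were of small values for the most part. *Srebf2* was 0.0018 and 0.0046 with pseudocounts of 0.5 and 1, 0.00049 with median-ratio scaling and 0.0385 with depth as a covariate or among the 6 libraries. With array weights *Dhcr7* was −0.0073, *Scap* 0.0451 and *Mylip* 0.0867. With depth as a covariate, and equally among the 6 libraries, *Acat2* was 0.13, *Npc1* −0.29 and *Soat2* −0.27. With a library left out, log2 fold changes ran from −0.18 to 0.28 for *Acat2*, −0.12 to 0.22 for *Srebf2*, −0.25 to 0.15 for *Mylip*, −0.12 to 0.0486 for *Scap*, −0.15 to 0.80 for *Idi1*, −0.0819 to 0.24 for *Hsd17b7*, −0.23 to 0.27 for *Dhcr7*, −0.23 to 0.41 for *Soat2* and −0.0527 to 0.0259 for *Lcat*. The cause of these changes was not tested. The lowest value of a member, 1.30 FPKM, is above that of 1 fragment per kilobase in every library, while the median log2 fold change of the enzymes was 0.69 with depth as a covariate, against 0.37 without it.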
